A study of Glycine max with 2 samples.

Results

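The genes described here are 5 soybean genes of nitrate reduction, glutamine synthesis and amino group transfer, INR1, GS1GAMMA2, GS1alpha, AAT and ALAAT1. They were taken by gene symbol from the array's probe annotation, where they carry 10 of the 37593 soybean probe sets, and they are 5 of the 6031 genes that the annotation names by a probe set of its own. Plants in aerated soil take up much of their nitrogen as nitrate, which nitrate reductase turns into nitrite in the cytosol and nitrite reductase turns into ammonium in the plastid. Glutamine synthetase then binds ammonium to glutamate, and its cytosolic forms, GS1, are encoded by a small gene family. Aminotransferases pass the amino group on, aspartate aminotransferase (AAT) to aspartate and alanine aminotransferase (ALAAT) to alanine.

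The salinity group was seedlings of Glycine max cultivar Williams 82, 14 days old, given 150 mM NaCl, and the mock group was seedlings of the same cultivar and age given water only. Both had grown in vermiculite at 25 °C with 16 h of light. RNA from treatments of 1, 3, 6, 12 and 24 h was combined into 1 pool per group, and each pool went on 1 Affymetrix Soybean Genome Array, so there were no replicates, no test was possible, and every difference describes these 2 arrays. The text on the design also lists samples at the start of treatment, so whether the pools hold them is not settled, and a pooled level cannot show at which time a gene differed.

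Values are log2 signals, and a log2 ratio is the salinity value minus the mock value, so that a positive ratio means a higher signal on the salinity array. A signal counted as measured when it lay above a background bound, the 95th percentile of the probe sets for 2 other organisms on the array, which was 4.88 for the salinity pool and 4.94 for the mock pool. All 10 probe sets lay above the bound on both arrays, by at least 3.13 log2 units. Differences were counted where they reached 2-fold. The genes were chosen with their ratios on these arrays known, so that the ratios below are a description and support nothing further. In a bulk sample, fewer cells of a type and less RNA per cell cannot be told apart.

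The material had strong green tissue signals. LOC547819 and CAB3, both for chlorophyll-binding proteins, had log2 signals of 14.37 and 14.90 in the salinity pool, against 14.93 and 15.14 in the mock pool. The labels do not name the organs. Of 48 probe sets for soybean ribosomal RNA, 35 lay above the bound on both arrays, and 32 of those were higher on the salinity array, with a median log2 ratio of 0.85. The part of that shift in the values below was not tested.

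Taken by gene, INR1 and GS1GAMMA2 were lower on the salinity array and GS1alpha, AAT and ALAAT1 were higher. By gene, 3 of 5 thus lay above 0, against 2935 of the 5895 genes measured. By probe set, 8 of the 10 log2 ratios were above 0 and 2 were below. Those 8 came from GS1alpha, AAT and ALAAT1, with 4 from AAT alone. At the 2-fold rule, 3 of 10 probe sets were higher and 2 of 10 were lower. Of all 33784 soybean probe sets measured on at least 1 array, 4.33% were higher and 5.36% lower by that rule. The 10 member sets were all measured on both arrays. The members were picked on this same contrast, so nothing is read from those shares. The other 5 probe sets lay within 2-fold, and these were all 4 sets of AAT and the second set of GS1alpha.

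**Figure D1:**
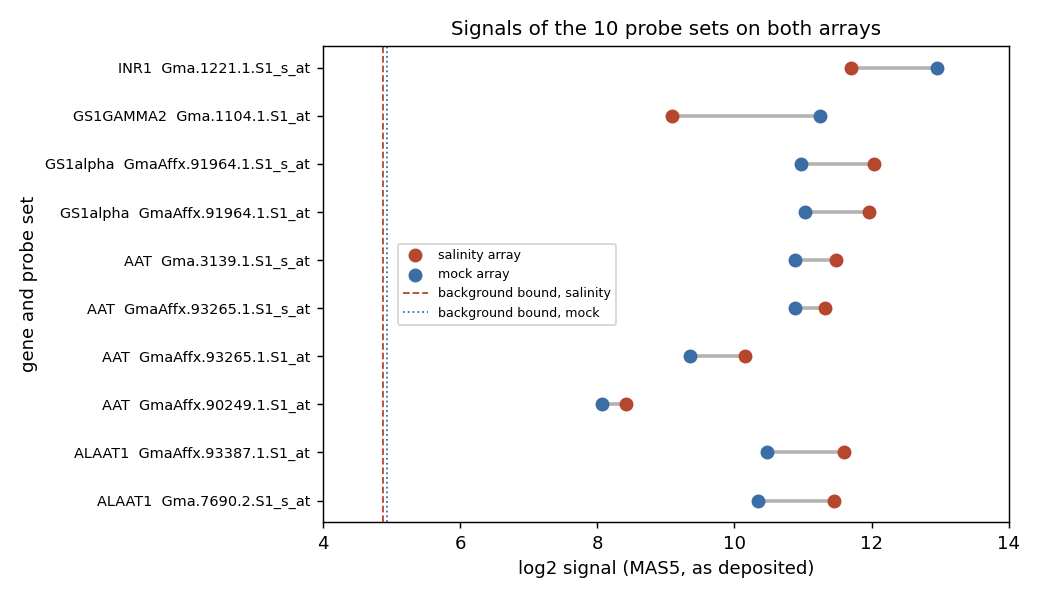
Log2 signal of each of the 10 probe sets (rows) on the salinity array (red) and the mock array (blue), with 1 array per group and the background bounds as vertical lines. INR1 and GS1GAMMA2 lie to the left on the salinity array, the other 8 sets lie to the right, and all signals lie between 8.07 and 12.94, well above the bounds.

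INR1 encodes an inducible nitrate reductase. Its only probe set, Gma.1221.1.S1_s_at, had a log2 signal of 11.69 in the salinity pool, against 12.94 in the mock pool, or 3309 and 7881 on the linear scale. The salinity signal was 2.38-fold lower, a log2 ratio of -1.25, and 2.84% of the 32113 soybean probe sets measured in both pools had a lower ratio. The suffix of the set marks probes that can bind transcripts of several genes. The gene identifier given for INR1 was not found in the RefSeq gene table, where INR1 is listed as another name of INR2. Signals of INR1 and INR2 can therefore not be cleanly separated.

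INR2, the other nitrate reductase gene with a probe set of its own, gave nearly the same picture. Its set without a suffix, Gma.8416.1.S1_at, had a log2 signal of 12.04 in the salinity pool, against 13.27 in the mock pool, and its log2 ratio of -1.23 differed from that of INR1 by 0.02. Nitrite reductase, the next enzyme of the pathway, did not show this difference. The brightest of the 3 sets of NIR had a log2 signal of 13.01 in the salinity pool, against 12.83 in the mock pool, and the log2 ratios of the 3 sets spanned -0.19 to 0.18. INR1 thus lay 1.43 log2 units below NIR in the ratio.

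GS1GAMMA2 encodes a cytosolic glutamine synthetase of the gamma type, a form that in common bean is known for high expression in root nodules. Its only probe set, Gma.1104.1.S1_at, carries no suffix. The log2 signal was 9.09 in the salinity pool, against 11.25 in the mock pool, or 546 and 2432 on the linear scale. That is 4.45-fold lower with salt, a log2 ratio of -2.15. Of the soybean probe sets measured in both pools, 0.408% had a lower ratio. Of 7 nodule marker genes, 5 passed the bound in the salinity pool, against 5 in the mock pool, and the log2 of their summed signal was 13.33 in the salinity pool, against 12.86 in the mock pool. The measured markers went both ways, with log2 ratios of -1.76 for ENOD55-2, -0.004 for UR2, 0.37 for UR9, 0.66 for ENOD40B and 1.23 for N-36A. ENOD93 and LOC100784860, an early nodulin gene, lay below the bound on both arrays. The part of nodule tissue in the GS1GAMMA2 difference was not tested.

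GS1alpha, a cytosolic glutamine synthetase gene of another type, went the opposite way. Its set GmaAffx.91964.1.S1_s_at had a log2 signal of 12.03 in the salinity pool, against 10.97 in the mock pool, or 4177 and 2007 on the linear scale. Its set GmaAffx.91964.1.S1_at, which carries no suffix, had 11.96 in the salinity pool, against 11.03 in the mock pool. The salinity signals were 2.08-fold and 1.90-fold higher, so the gene lay at the edge of the 2-fold rule and passed it by 1 of its 2 sets. Both sets carry the same transcript number in the array design and are not independent measurements. The mean over both sets was a log2 ratio of 0.99.

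The 2 glutamine synthetase genes thus lay on opposite sides of 0, with GS1alpha 3.21 log2 units above GS1GAMMA2 in the ratio. For comparison, 1618 genes had several probe sets measured in both pools. Over these genes, the log2 ratios of sets of the same gene spanned a median of 0.27 and a 90th percentile of 0.85. That spread holds probe effects and no error between plants, pools or arrays. The 2 genes were picked with their ratios known, so the spread is no test of their gap. A difference in ratio between genes says that their signals changed unequally between the arrays, and levels of different probe sets cannot be set against each other.

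The other GS1 genes that the annotation names, given here for their kinship with the members after their values were seen, lay between these. The soybean probe sets without a gene name, 28546 of 37593, were not searched for further GS1 genes. GS1-GAMMA had a log2 signal of 5.38 in the salinity pool, against 6.37 in the mock pool, a log2 ratio of -0.99, just inside the 2-fold rule and close to the bound. GS1beta1 (LOC548082) was bright on both arrays, at 14.32 in the salinity pool, against 14.40 in the mock pool by its brightest set. The ratios of its 4 measured sets lay between -0.36 and -0.02. All of these but the brightest have the suffix for probes that can bind transcripts of several genes. GS1beta2 (LOC547953) lay between -0.05 and 0.08 over 3 sets. Among the named GS1 genes, both gamma genes were therefore lower on the salinity array, both beta genes differed little, and the alpha gene was higher.

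**Figure D2:**
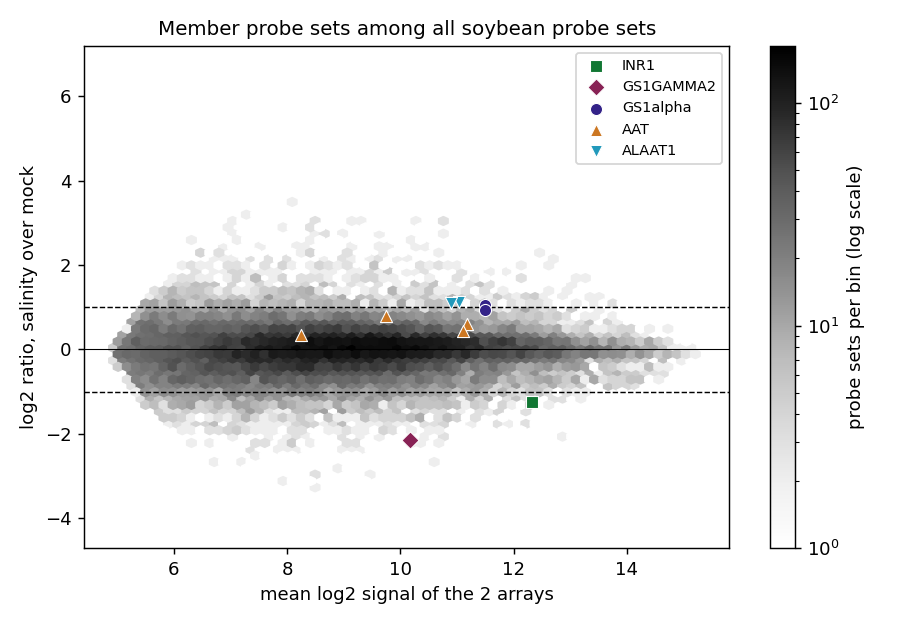
Log2 ratio of salinity over mock (vertical) against the mean log2 signal of the 2 arrays (horizontal) for the 32113 soybean probe sets measured in both pools (grey, darker for more sets), with the 10 member sets in colour and dashed lines at 2-fold. GS1GAMMA2 at -2.15 lies near the lower edge of the cloud, and ALAAT1 at 1.11 and 1.12 and GS1alpha at 0.93 and 1.06 lie near the upper dashed line.

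ALAAT1 encodes an alanine aminotransferase, which moves an amino group between glutamate and alanine. Its set GmaAffx.93387.1.S1_at had a log2 signal of 11.60 in the salinity pool, against 10.47 in the mock pool, or 3097 and 1422 on the linear scale. Its set Gma.7690.2.S1_s_at, whose suffix marks probes that can bind transcripts of several genes, had 11.45 in the salinity pool, against 10.34 in the mock pool. The sets were 2.18-fold and 2.15-fold higher with salt. They come from different transcript groups of the array design and their log2 ratios differed by 0.016. That range was smaller than for all but 3.58% of the genes with several measured sets, some of which had more sets than ALAAT1. Both sets read the same pools, so their likeness is not replication.

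The paralogs of ALAAT1 differed from it in direction. ALAAT2 had a log2 signal of 12.78 in the salinity pool, against 13.27 in the mock pool, a log2 ratio of -0.49. The only set of ALAAT2 has the suffix for probes that can bind transcripts of several genes. ALAAT3 had 12.61 in the salinity pool, against 13.17 in the mock pool, a log2 ratio of -0.56. A set assigned to both of them, Gma.11067.1.S1_a_at, gave -0.45 and does not separate them. It carries the same transcript number as the ALAAT3 set and is not independent of it. The values of ALAAT2 and ALAAT3 may therefore not be separate measurements. The log2 ratio of ALAAT1 lay 1.62 above that of ALAAT2 and 1.69 above that of ALAAT3. The set Gma.7690.1.S1_at, whose ID shares its first number with an ALAAT1 set but which is assigned to LOC100305919, also pointed down, with 12.06 in the salinity pool, against 12.75 in the mock pool and a log2 ratio of -0.69. That set and the ALAAT paralogs were singled out after their values were seen.

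AAT encodes an aspartate aminotransferase and had 4 probe sets, more than any other member. The brightest, Gma.3139.1.S1_s_at, had a log2 signal of 11.48 in the salinity pool, against 10.88 in the mock pool, a 1.52-fold higher signal with salt. GmaAffx.93265.1.S1_s_at had 11.32 in the salinity pool, against 10.88 in the mock pool, and GmaAffx.93265.1.S1_at had 10.15 in the salinity pool, against 9.35 in the mock pool. Both of these carry the same transcript number in the array design and are not independent measurements. The AAT sets ending in _s_at have the suffix for probes that can bind transcripts of several genes. GmaAffx.90249.1.S1_at was the dimmest, with 8.41 in the salinity pool, against 8.07 in the mock pool. All 4 sets were higher on the salinity array, by 1.27-fold to 1.74-fold, and none reached 2-fold. The SD of their log2 ratios was 0.20, against a pooled SD of 0.33 between sets of the same gene over all 1618 genes. Their range of 0.46 was wider than that of 70.0% of those genes, many of which had fewer sets.

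Beside the members, 25 other genes were measured, from a list set by symbol and synonym that spans nitrogen metabolism, transport and polyamine synthesis. By gene, 1 of these 25 was at least 2-fold higher and 2 were at least 2-fold lower. Of the 5895 genes measured on at least 1 array, 5.02% were higher and 5.68% lower by that rule. The median log2 ratio of the 25 was -0.05, and that of all genes measured was -0.003. Of the 25, 10 lay above 0 and 15 below, against 2935 above and 2960 below of all 5895 genes measured. Ratios on both sides lay close to 0, such as -0.004 for UR2 and 0.04 for GS1beta2, where the sign has little weight. INR2 was lower, as given above, but its signal cannot be cleanly separated from that of the member INR1. ODC1 (LOC548088), for the polyamine enzyme ornithine decarboxylase, was 2.01-fold lower, with 7.32 in the salinity pool, against 8.33 in the mock pool. CLC1, of the family of chloride and nitrate channels, was 2.07-fold higher by its brightest set, with 9.68 in the salinity pool, against 8.63 in the mock pool, while its 3 sets spanned log2 ratios of -0.34 to 1.31.

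**Figure D3:**
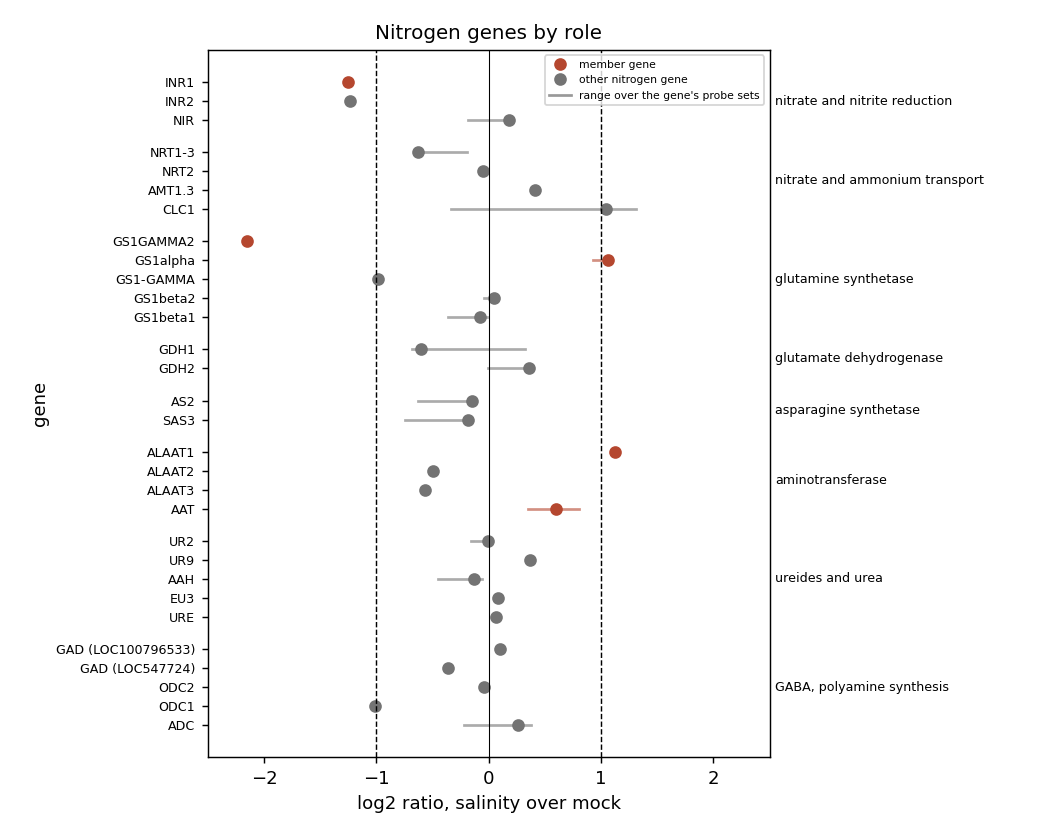
Log2 ratio of salinity over mock for the 30 nitrogen genes, by role, with each point the brightest probe set of a gene, each line the range over its measured sets, red the 5 members and dashed lines at 2-fold. INR1 and INR2, whose signals cannot be cleanly separated, both lie below -1. The glutamine synthetase genes spread from -2.15 to 1.06. The ureide and urea genes stay between -0.13 and 0.37 by their brightest sets, with a set of AAH down to -0.45.

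Transport, glutamate dehydrogenase, asparagine and ureide genes were read by role. Among transporters, NRT1-3, of the nitrate transporters, had a log2 ratio of -0.63 by its brightest set and -0.19 by its other, NRT2 had -0.05, and the ammonium transporter gene AMT1.3 had 0.41. GDH1, for a glutamate dehydrogenase, had a log2 signal of 11.65 in the salinity pool, against 12.26 in the mock pool, but its sets spanned -0.68 to 0.32, and GDH2 had 0.36 by its brightest set and -0.01 by its other. The asparagine synthetase genes SAS3 (LOC732660) and AS2 had -0.18 and -0.15 by their brightest sets, and their sets reached down to -0.74 and -0.63. Among 5 ureide and urea genes the largest ratio by brightest set was that of UR9, a uricase gene, at 0.37, and the lowest set was of AAH, for allantoate amidohydrolase, at -0.45.

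With 2 arrays, likeness between genes can only mean a like pair of signals. Nearest to ALAAT1 among genes with a symbol lay HO3, a heme oxygenase gene, at 11.58 in the salinity pool, against 10.26 in the mock pool, a distance of 0.21 log2 units, and SGR2, of the stay-green family, at 0.24. Nearest to GS1GAMMA2 lay GASA6, of the gibberellin-stimulated family, at 8.65 in the salinity pool, against 11.34 in the mock pool, a distance of 0.45, and B13-1-9 at 0.46. No error can be put on these distances.

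Scaling the arrays differently left the member ratios almost as they were. Over 3 other scalings, 2 other bounds and an added constant, the log2 ratio of GS1GAMMA2 lay between -2.16 and -2.12 and that of INR1 between -1.25 and -1.23. The other bounds could not change these ratios, because the signals lay far above them. The choice of probe sets mattered more. Without the sets marked for cross-hybridisation, INR1 had no set left, GS1alpha stood at 0.93, inside the 2-fold rule, and AAT at 0.80.

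**Figure D4:**
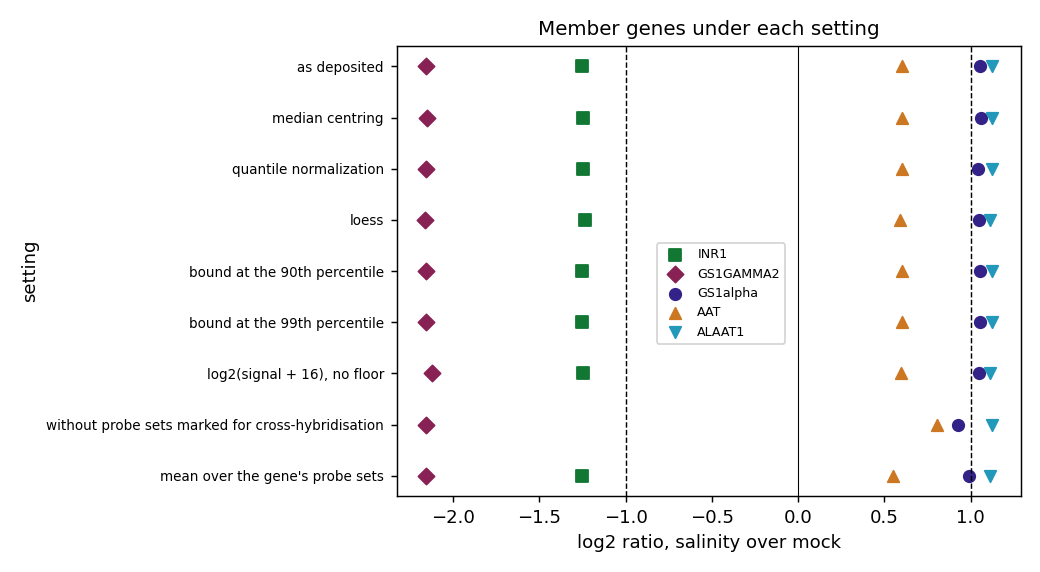
Log2 ratio of salinity over mock of each member gene (colour and shape) under the deposited scale and 8 other settings (rows), with dashed lines at 2-fold. The points of a gene stay in a column, except AAT, at 0.55 to 0.80, and GS1alpha, which moves inside the 2-fold line, to 0.93 or 0.99, under the last 2 settings, while INR1 has no point without the marked sets.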

How the data were processed

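The deposited values are log2 signals that the authors made with MAS5, per the submitters' processing notes, with no version. Any later step is not given in the sources used here. The method, MAS5, sums up a probe set and scales each array as a whole, and unlogged signals had a 2% trimmed mean of 498.8 (salinity) and 498.5 (mock). Depth does not apply to arrays, and the number of arrays limits the precision. Signals were floored at the bound and compared as log2 ratios with no further normalization, in Python 3.11.15 with pandas 2.3.3. The brightest set stood for a gene. The ratio step was run on simulated shifts well past 2-fold in bright probe sets, which does not test calls near 2-fold.

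Of the soybean probe sets, 8677 have a single gene, 370 several (left unnamed) and 28546 none. Of the 5 member genes, 4 were found in the RefSeq gene table (assembly Glycine_max_v4.0), which served only for names; no coordinates are given, since no build is named, and no sequences. Members and lists were chosen with earlier results of these data known. Named genes are all members, listed nitrogen genes at least 2-fold apart or else the largest of each role, and kin of members. The genes NRT1-3, NRT2, AMT1.3, GDH2, AS2, NIR and AAH are named beyond that rule to fill in their roles, as chosen after their values were seen. From the symbols caught, 5 were left out as of another or unsure role (ARGS, NRP-A, NRP-B, DMT1, GSA1). Seed storage markers were above the bound for 4 of 13 genes on the salinity array and 3 of 13 on the mock array. Alternatives were other scalings (median centring, quantile, loess with statsmodels 0.14.6 at a fraction of 0.3), a bound taken from the 90th or from the 99th percentile, log2(signal + 16), dropping marked sets and averaging a gene's sets.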

Additional observations from a re-analysis of the deposited data

How the results depend on the processing

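No paired analysis was possible because each group has 1 array. Of 135 values recomputed under 8 settings, 133 stayed within a fixed limit. That limit was the spread between probe sets of a gene (0.33 log2 units) or, for counts, 1.5 times. None of the member ratios past 2-fold changed direction. Much of this tally was fixed in advance. The member sets lay far above every bound, so other bounds could not change their ratios. Median centring moves all ratios alike, and a gene with a single set cannot change when sets are averaged. With the sets marked for cross-hybridisation left out, the count of member sets past 2-fold was 1 higher and 1 lower, which follows from the 5 sets left. GS1alpha missed the 2-fold rule at 0.93 without those sets and at 0.99 as a mean over its sets. The median of the nitrogen list, members included, was -0.05 and lay between -0.07 and 0.003 over the settings, so its sign has no weight.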
